A study of Mus musculus with 3 samples.

Results

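Expression of 10 Notch pathway genes was examined in mouse keratinocytes, the epithelial cells of the epidermis. The genes were chosen by name, with earlier results of these data known. They were the receptors Notch1, Notch2 and Notch3 and the ligands Jag1, Jag2 and Dll1. Also chosen were the DNA-binding factor Rbpj, the effectors Hes1 and Hey1, and the modifier Lfng. Each of the 10 symbols matched 1 of the 41214 gene identifiers that were counted. With 1 CPM (counts of a gene per 1000000 counts of the library, after scaling) in at least 1 library as the minimum, 11865 genes were compared, and 9 of the 10 genes were among them. Hey1 was below that level in all 3 libraries, and its values are given as counts.

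Each of 3 genotypes was represented by 1 RNA library: wild type (wt), ARPC4 ko and Nrf2-EGFP. ARPC4 belongs to the Arp2/3 complex, the nucleator of branched actin, and Nrf2 is the transcription factor of the antioxidant response. EGFP is a fluorescent protein, and the labels do not say how it is joined to Nrf2. All 3 cultures were C57BL/6 keratinocytes immortalised with SV40 and harvested while growing exponentially, with no treatment stated. The sample title of ARPC4 ko holds the word Cre and that of Nrf2-EGFP the word High. The deleted part of the gene, the promoter of the Nrf2-EGFP construct, and whether a culture was 1 clone were not stated.

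The libraries held between 22924294 and 25723959 gene counts. In the library labelled ARPC4 ko, Arpc4 was at 61.0 CPM against 94.2 in wt, and in the library labelled Nrf2-EGFP, Nfe2l2, which encodes Nrf2, was at 166.4 CPM against 224.7 in wt. Libraries are therefore named by their labels only. All 8 basal keratinocyte markers were above 1 CPM, and their summed level was 22491 CPM in wt, 13033 CPM in ARPC4 ko and 17812 CPM in Nrf2-EGFP, with Krt5 and Krt14 the main part. Of 8 markers each of endothelial cells, fibroblasts, immune cells and melanocytes, 3, 2, 1 and 1 passed the minimum. Because no genotype had a second culture, the spread between cultures is unknown and no test of genotypes was made. Ranges in parentheses are exact 95% intervals and cover counting error only, treating each read as 1 molecule although the libraries carried no molecular identifiers. A difference "passed" where the log2 ratio of CPM + 0.5 was at least 1 in size, that is 2-fold, and the interval of the ratio of counts excluded 1.

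Notch receptors are single-pass membrane proteins that are switched on by ligands of the Jagged and Delta families on a neighbouring cell. Ligand binding exposes the receptor to cleavage by ADAM proteases and then by γ-secretase, and the released intracellular domain joins RBPJ and a Mastermind co-activator on DNA to switch on Hes and Hey repressors. In the epidermis the pathway is known for driving basal cells into the suprabasal, spinous layers. Fringe enzymes such as LFNG add sugars to the receptor's extracellular part and so bias it between Delta and Jagged ligands. NRF2 has been described as an activator of Notch1 transcription through an antioxidant response element.

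Promoter sequences are shown for Notch1 and Notch2, the main receptors, whose proportion differed between the libraries, and for Rbpj and Lfng, the genes whose windows held matches to the pathway's own binding motif. RefSeq (GRCm38.p6) gave start-site windows, from 250 bases before to 50 after the start, for 8 of the 10 genes. Hes1 and Hey1 were not matched. Stretches are printed 5′ to 3′ on the gene's strand, without annotated exons. Capitals mark matches on either strand to the RBPJ core TGGGAA or to the antioxidant response element TGACNNNGC.
Notch1, chr2:26503825-26504072, minus strand: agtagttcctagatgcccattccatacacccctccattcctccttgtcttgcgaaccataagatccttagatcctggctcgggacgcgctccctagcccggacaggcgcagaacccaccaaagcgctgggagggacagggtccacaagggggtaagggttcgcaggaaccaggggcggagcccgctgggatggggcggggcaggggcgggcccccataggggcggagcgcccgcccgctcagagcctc
Notch2, chr3:98013288-98013526, plus strand: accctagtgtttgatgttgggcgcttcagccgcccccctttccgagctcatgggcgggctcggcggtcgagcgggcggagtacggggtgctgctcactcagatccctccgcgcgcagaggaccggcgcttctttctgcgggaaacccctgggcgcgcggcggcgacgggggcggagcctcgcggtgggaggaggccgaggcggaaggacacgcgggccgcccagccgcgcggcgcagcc
Rbpj, chr5:53590096-53590213, plus strand: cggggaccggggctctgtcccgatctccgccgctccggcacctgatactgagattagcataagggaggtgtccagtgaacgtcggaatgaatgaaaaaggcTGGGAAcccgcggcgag
Lfng, chr5:140607091-140607319, plus strand: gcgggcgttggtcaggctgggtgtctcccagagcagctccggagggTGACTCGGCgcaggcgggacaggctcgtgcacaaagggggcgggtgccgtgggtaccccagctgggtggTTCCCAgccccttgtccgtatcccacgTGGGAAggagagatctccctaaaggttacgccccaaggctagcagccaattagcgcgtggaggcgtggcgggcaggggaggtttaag
The Notch1 and Rbpj stretches lie inside longer gene models of GENCODE M21, which have further start sites upstream.

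The RBPJ core was found in the windows of 2 of the 8 genes, Rbpj and Lfng, and in 25.6% of all 32851 windows of the same length. Rbpj held 2 cores, the second of them beyond the printed stretch. Lfng also held 2 cores, and 1 of them, beginning 108 bases before the start, lay within the longer form GTGGGAA, which was present in 6.38% of all windows. Lfng also held the single antioxidant response element among these genes, beginning 204 bases before the start, where 12.4% of all windows have one. Neither motif was found in the window of Notch1, Notch2, Notch3, Jag1, Jag2 or Dll1. These are matches of letters in a short window and say nothing about binding.

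None of the 9 compared genes passed the 2-fold rule in any of the 3 comparisons. The same rule was passed by 6.76% of all genes in ARPC4 ko against wt, by 5.61% in Nrf2-EGFP against wt and by 2.98% in ARPC4 ko against Nrf2-EGFP. Dll1 came closest, at 1.95 times its wt count in ARPC4 ko. Both comparisons with wt share that single library. Counting error alone was small: the interval excluded 1 for 8 of the 9 genes in each comparison, as it did for 66.3%, 62.9% and 55.4% of all genes. In ARPC4 ko against wt, 7 of these were higher and 1 lower, where 31.6% and 34.6% of all genes were. In Nrf2-EGFP against wt, 6 were higher and 2 lower, beside 32.1% and 30.8%. Between ARPC4 ko and Nrf2-EGFP, 4 were higher and 4 lower, beside 23.6% and 31.8%. The plot of CPM by gene gives the level in each library.

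**Figure D1:**
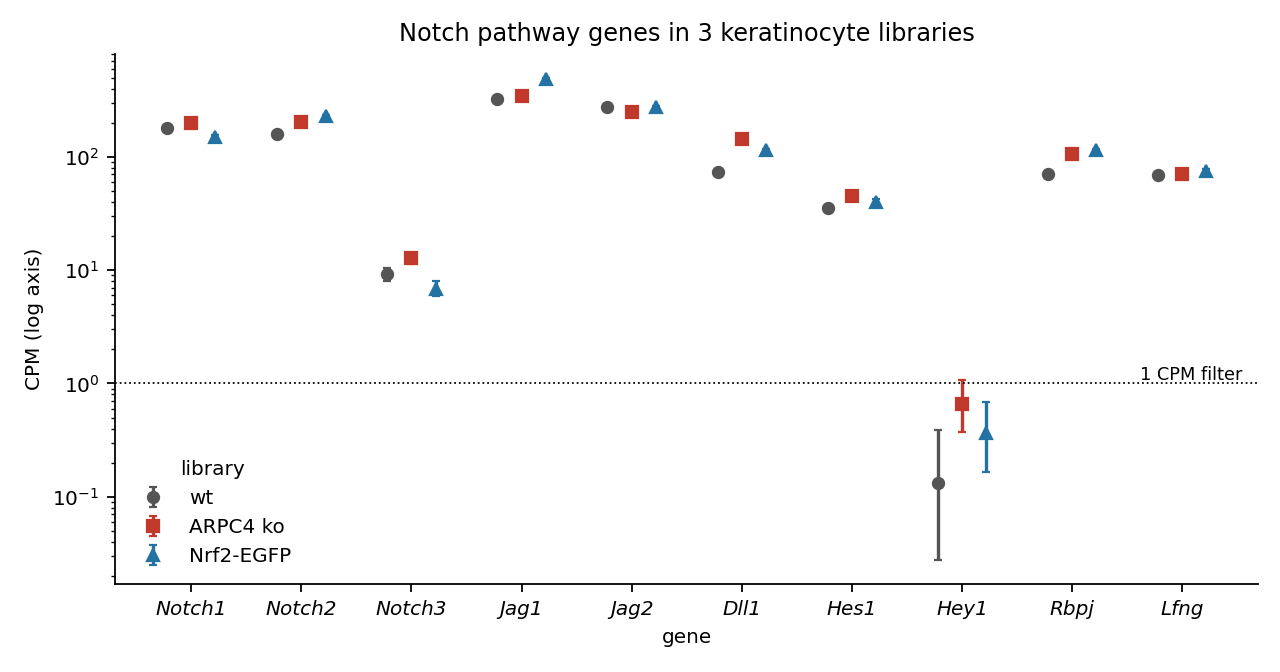
CPM (log axis) of the 10 Notch pathway genes in the wt, ARPC4 ko and Nrf2-EGFP libraries, 1 point per library, with bars for exact 95% Poisson intervals and a dotted line at the minimum of 1 CPM. Notch2, Jag1, Dll1, Hes1, Hey1, Rbpj and Lfng were lowest in wt by point value, with overlapping intervals for Hes1, Hey1 and Lfng. Jag1 was highest in Nrf2-EGFP, and Hey1 lay below 1 CPM throughout.

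Among the ligands, Dll1 and Jag1 were each higher in both other libraries than in wt by more than counting error, and Jag2 differed little. Dll1 (ENSMUSG00000014773, chromosome 17, 15367354 to 15376872, minus strand, in mm10 by GENCODE M21) encodes a Delta ligand that in epidermis is known from clusters of stem cells. It was measured at 73.3 CPM (69.8 to 77.0) in wt, 142.9 CPM (138.2 to 147.7) in ARPC4 ko and 113.8 CPM (109.6 to 118.0) in Nrf2-EGFP. All 3 libraries stood apart beyond counting error, in the order wt, Nrf2-EGFP, ARPC4 ko. The ratio to wt was 1.95 (1.84 to 2.07) in ARPC4 ko and 1.55 (1.46 to 1.65) in Nrf2-EGFP, and ARPC4 ko was 1.26 times Nrf2-EGFP (1.19 to 1.32). With libraries scaled by total counts in place of TMM (trimmed mean of M-values, the scaling used throughout), the log2 ratio of Dll1 in ARPC4 ko was 1.06 instead of 0.96 and passed. The median over all genes shifted by 0.10 with it, and relative to that shift the value for Dll1 stayed at 0.96.

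Jag1 (ENSMUSG00000027276, chromosome 2, 137081456 to 137116644, minus strand) encodes the Jagged ligand that is known in the suprabasal epidermis and hair follicle. Its level was 321.8 CPM (314.5 to 329.3) in wt, 346.0 CPM (338.6 to 353.5) in ARPC4 ko and 485.1 CPM (476.5 to 493.9) in Nrf2-EGFP. The Nrf2-EGFP library was the high one, and wt and ARPC4 ko were close, although their intervals did not overlap. Against wt the ratio was 1.51 (1.46 to 1.55) in Nrf2-EGFP and 1.075 (1.04 to 1.11) in ARPC4 ko. Between these libraries, Jag1 was 1.40-fold lower (1.36 to 1.44) in ARPC4 ko than in Nrf2-EGFP.

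Jag2 (ENSMUSG00000002799, chromosome 12, 112907819 to 112929776, minus strand), the Jagged ligand known from basal keratinocytes, had 277.3 CPM in wt, 247.4 CPM in ARPC4 ko and 275.4 CPM in Nrf2-EGFP. The wt and Nrf2-EGFP libraries could not be told apart by counting error, with a ratio of 0.993 (0.959 to 1.03). In ARPC4 ko the ratio to wt was 0.892 (0.861 to 0.925), the single ratio below 1 among the 10 genes in that comparison.

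The receptors differed from wt in different directions. Notch1 (ENSMUSG00000026923, chromosome 2, 26457903 to 26516663, minus strand), the receptor best known for promoting keratinocyte differentiation, was at 179.3 CPM (173.9 to 185.0) in wt, 197.0 CPM (191.5 to 202.7) in ARPC4 ko and 150.0 CPM (145.2 to 154.9) in Nrf2-EGFP. The ARPC4 ko library was the highest and Nrf2-EGFP the lowest, with no overlap of intervals. The ratio to wt was 1.099 (1.05 to 1.15) in ARPC4 ko and 0.836 (0.800 to 0.875) in Nrf2-EGFP, and ARPC4 ko was 1.31 times Nrf2-EGFP (1.26 to 1.37).

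Notch2 (ENSMUSG00000027878, chromosome 3, 98013527 to 98150361, plus strand), a receptor that acts alongside Notch1 in skin, was lowest in wt. It had 159.5 CPM (154.3 to 164.8) in wt, 203.2 CPM (197.6 to 209.0) in ARPC4 ko and 229.4 CPM (223.5 to 235.4) in Nrf2-EGFP. Its ratio to wt was 1.27 (1.22 to 1.33) in ARPC4 ko and 1.44 (1.38 to 1.5) in Nrf2-EGFP. Thus Notch1 and Notch2 lay on opposite sides of wt in Nrf2-EGFP and on the same side in ARPC4 ko.

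Notch3 (ENSMUSG00000038146, chromosome 17, 32120820 to 32166852, minus strand) was a minor receptor here, with 207 counts in wt, 311 in ARPC4 ko and 170 in the Nrf2-EGFP library. These counts correspond to 9.21, 12.8 and 6.84 CPM, so the order of the libraries was that of Notch1. The ratio to wt was 1.39 (1.16 to 1.67) in ARPC4 ko and 0.743 (0.603 to 0.915) in Nrf2-EGFP. ARPC4 ko was 1.87 times Nrf2-EGFP (1.55 to 2.27), the highest ratio of the 9 compared genes between those libraries.

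**Figure D2:**
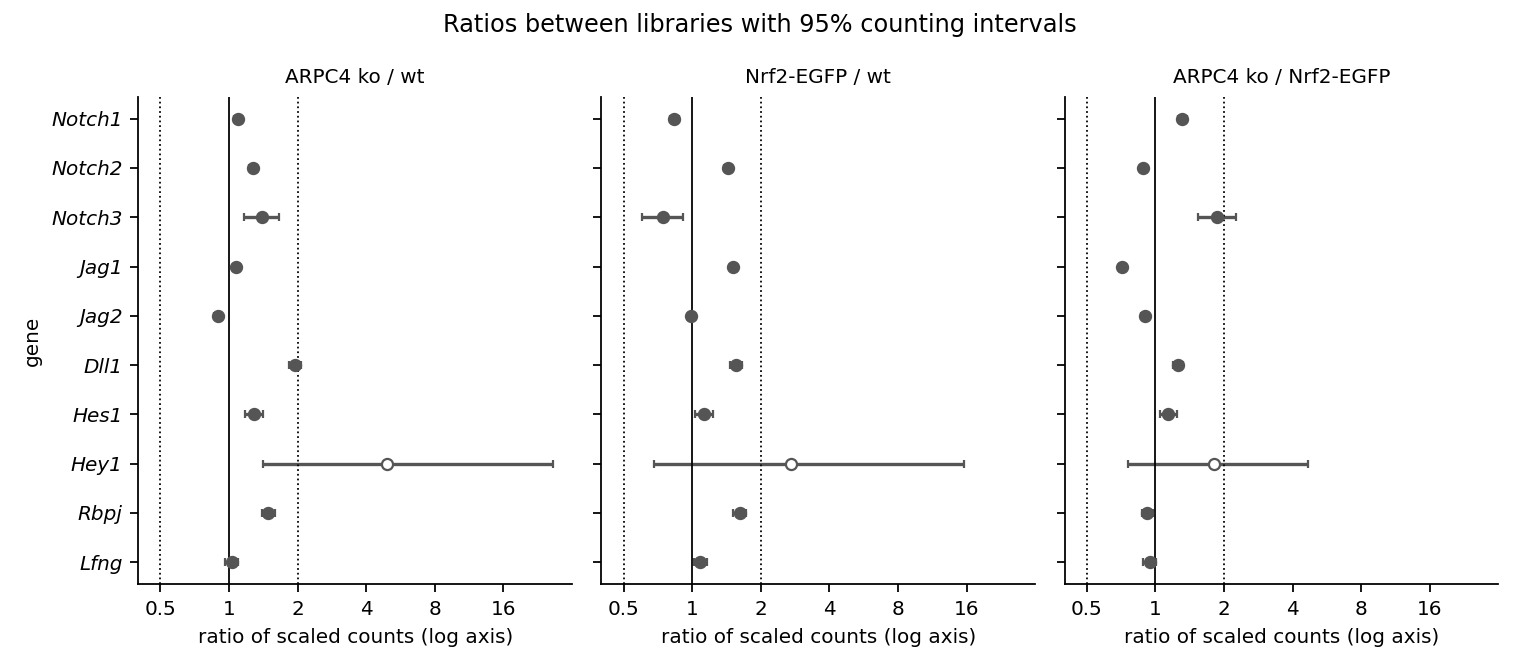
Ratio of scaled counts between libraries (log axis) for the 10 genes, 1 panel per comparison, with exact 95% counting intervals, a solid line at 1 and dotted lines at 0.5 and 2. The open point is Hey1, which was below the minimum level. In ARPC4 ko against wt, Dll1 sits at 1.95 and Jag2 at 0.892.

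Ratios of genes within a library do not depend on how libraries are scaled, and the proportion of the receptors differed between libraries. Per read of Notch1 there were 0.889 reads of Notch2 (0.850 to 0.930) in wt, 1.03 (0.991 to 1.07) in ARPC4 ko and 1.53 (1.47 to 1.59) in Nrf2-EGFP. As a share of the counts of the 3 receptors, Notch1 made up 51.5% (50.4% to 52.6%, exact binomial) in wt, 47.7% (46.7% to 48.7%) in ARPC4 ko and 38.8% (37.9% to 39.8%) in Nrf2-EGFP. Notch3 took 2.65% (2.30% to 3.03%), 3.10% (2.77% to 3.46%) and 1.77% (1.52% to 2.06%). Per kilobase of annotated exon, Notch2 exceeded Notch1 by 1.17 times in wt, 1.36 times in ARPC4 ko and 2.02 times in Nrf2-EGFP. That order depended on the length used: with the longest protein-coding transcript of each gene the ratios were 0.803, 0.932 and 1.38. Only in Nrf2-EGFP was Notch2 above Notch1 with both lengths.

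The ligands also shifted in proportion. Dll1 held 10.9% (10.4% to 11.4%) of the counts of the 3 ligands in wt, 19.4% (18.8% to 20.0%) in ARPC4 ko and 13.0% (12.6% to 13.5%) in Nrf2-EGFP. Jag2 held 41.2% (40.5% to 42.0%) in wt and less in both other libraries, at 33.6% (32.9% to 34.3%) in ARPC4 ko and 31.5% (30.9% to 32.1%) in Nrf2-EGFP. The share of Jag1 was 47.9% in wt, 47.0% in ARPC4 ko and 55.5% in the Nrf2-EGFP library. Per kilobase of exon, Dll1 stood at 0.437 of Jag2 in wt, 0.953 in ARPC4 ko and 0.682 in the Nrf2-EGFP library. Beside the lower share of Jag2, the ARPC4 ko library had a higher share of Dll1 than wt, and the Nrf2-EGFP library mainly a higher share of Jag1.

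**Figure D3:**
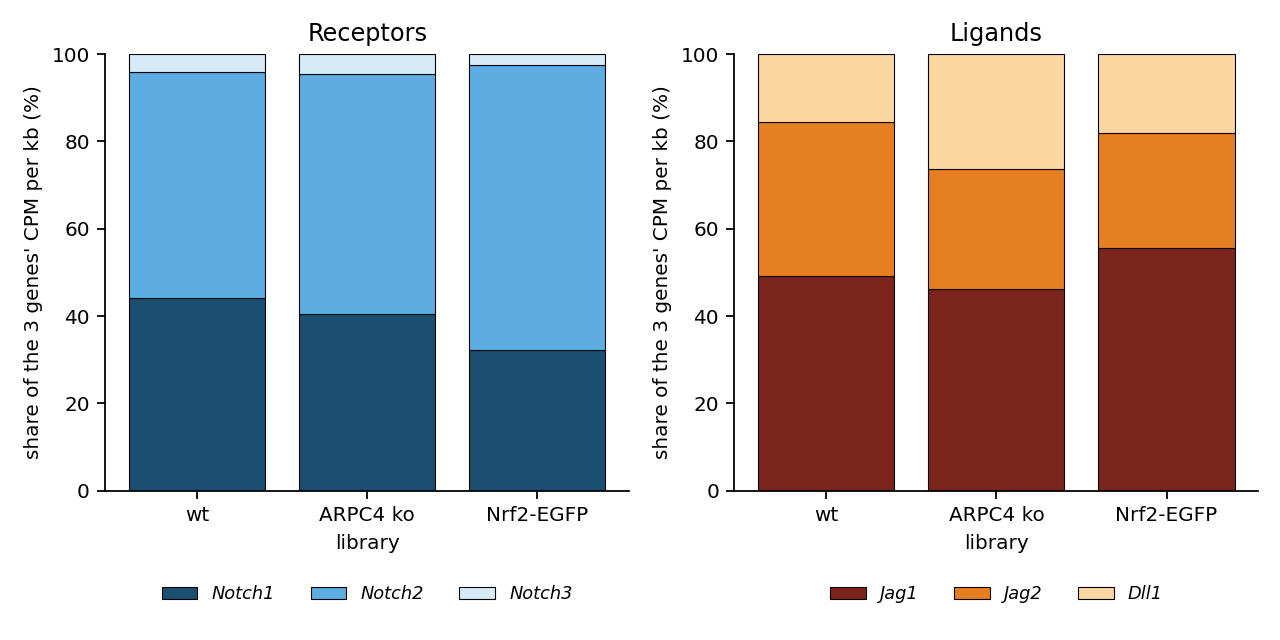
Share (%) of each gene in the summed CPM per kilobase of exon of the 3 receptors (left) and of the 3 ligands (right), 1 bar per library. Notch2 takes 51.8% in wt, 55.0% in ARPC4 ko and 65.1% in the Nrf2-EGFP library, and Dll1 takes 15.5%, 26.3% and 18.01%.

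Rbpj (ENSMUSG00000039191, chromosome 5, 53466152 to 53657362, plus strand) was higher than in wt in both other libraries. It had 70.6 CPM (67.2 to 74.2) in wt, 105.1 CPM (101.1 to 109.3) in ARPC4 ko and 114.0 CPM (109.8 to 118.3) in Nrf2-EGFP. Wt was the low library, and the other intervals nearly met, at 109.3 and 109.8 CPM. The ratio to wt was 1.49 (1.40 to 1.59) in ARPC4 ko and 1.61 (1.52 to 1.72) in Nrf2-EGFP. ARPC4 ko was 1.084-fold lower (1.03 to 1.14) than Nrf2-EGFP with TMM scaling, but the sign of this log2 ratio turned from -0.12 to 0.01 with scaling by total counts. Rbpj has processed pseudogenes, 2 of which were in the annotation with 0 counts each, and reads shared with them would be lost.

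Hes1, the repressor that is the most used readout of Notch activity, varied less than Rbpj and Dll1. Hes1 (ENSMUSG00000022528, chromosome 16, 30064384 to 30067796, plus strand) was at 35.3 CPM (32.9 to 37.8) in wt, 45.4 CPM (42.8 to 48.2) in ARPC4 ko and 39.8 CPM (37.4 to 42.4) in Nrf2-EGFP. The interval of Nrf2-EGFP overlapped that of wt slightly, and the ratio to wt was 1.13 (1.03 to 1.24). In ARPC4 ko the ratio to wt was 1.29 (1.17 to 1.41). Hey1 (ENSMUSG00000040289, chromosome 3, 8663359 to 8667256, minus strand), a related repressor, had 3 counts in wt, 16 in ARPC4 ko and 9 in the Nrf2-EGFP library. The ratio to wt was 4.93 (1.41 to 26.4) in ARPC4 ko and 2.72 (0.678 to 15.6) in Nrf2-EGFP, which at this depth gives little precision. On the scale of CPM + 0.5 the log2 ratios were 0.87 and 0.44.

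Lfng (ENSMUSG00000029570, chromosome 5, 140607320 to 140615545, plus strand), whose promoter stretch above holds both motifs, had the narrowest range of the 10 genes. It had 68.5 CPM (65.1 to 72.04) in wt, 70.3 CPM (67.0 to 73.8) in ARPC4 ko and 74.5 CPM (71.1 to 77.9) in Nrf2-EGFP. Neighbouring libraries in this order overlapped. The ratio to wt was 1.03 (0.958 to 1.1) in ARPC4 ko and 1.09 (1.01 to 1.16) in Nrf2-EGFP, and its range over the libraries was 0.12 in log2 against 0.96 for Dll1.

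Levels of different genes were compared per kilobase of annotated exon. In wt the order was Jag1 (55.2 CPM per kb), Jag2 (39.8), Lfng (27.4), Dll1 (17.4), Hes1 (17.3), Notch2 (14.8), Notch1 (12.6), Rbpj (5.54), Notch3 (1.14) and Hey1 (0.0409). Dll1 and Hes1 overlapped, and the other neighbours did not. Among protein-coding genes with at least 1 count in any library, Jag1 per kilobase stood at percentile 94.2 in wt, Notch2 at 75.8, Notch1 at 72.5 and Notch3 at 35.5. In ARPC4 ko, Dll1 (33.9 CPM per kb) stood above Lfng (28.1) and overlapped with Jag2 (35.5). In Nrf2-EGFP, Jag1 was at 83.3 CPM per kb and Notch2 (21.3) overlapped with Hes1 (19.5). The exon length counts every annotated exon, which understates genes with long rarely used exons. With the longest protein-coding transcript, Rbpj was at 12.9 CPM per kb in wt and Hes1 ranked above Dll1 there. With that length, Dll1 was at 39.9 and Jag2 at 48.5 CPM per kb in ARPC4 ko. In Nrf2-EGFP, Hes1 (27.1) then stood above Notch2 (21.8), so the overlaps above depended on the length used.

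For the 9 compared genes, the median log2 ratio to wt was 0.35 in ARPC4 ko, with 8 of 9 above 0, and 0.17 in Nrf2-EGFP, with 6 of 9 above 0. Over all genes compared the medians were -0.01 and 0.00, with 48.5% and 50.5% above 0. Between ARPC4 ko and Nrf2-EGFP the median of the 9 genes was -0.08 with 4 above 0, beside -0.02 and 47.1% for all genes. With Hey1 added, the medians were 0.35, 0.31 and 0.05, so that the sign of the last depended on a gene below the minimum. With a 1.5-fold rule, 1 of the 9 compared genes passed as higher in ARPC4 ko against wt (Dll1), where 10.8% of all genes did. In Nrf2-EGFP against wt there were 3 of 9 (Jag1, Dll1 and Rbpj), where 8.61% of all genes passed as higher. Notch3 was the 1 of 9 between ARPC4 ko and Nrf2-EGFP, beside 5.85%. None passed as lower, beside 6.24%, 5.72% and 3.38% of all genes in the same order of comparisons.

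A list of 66 further genes of the pathway, chosen with earlier results of these data known, was read in the same way. Of these, 52 reached the minimum level. In ARPC4 ko against wt, 5 of the 52 passed the 2-fold rule as lower and 0 as higher, beside 2.06% and 4.7% of all genes. In Nrf2-EGFP against wt, 2 passed as lower and 1 as higher, beside 2.05% and 3.57%. Krt1, counted as lower in both comparisons with wt, reached the minimum level in wt only. Between ARPC4 ko and Nrf2-EGFP none did, beside 2.01% higher and 0.961% lower among all genes. The medians of the 52 genes were -0.01, -0.02 and -0.03 in log2, close to those of all genes.

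**Figure D4:**
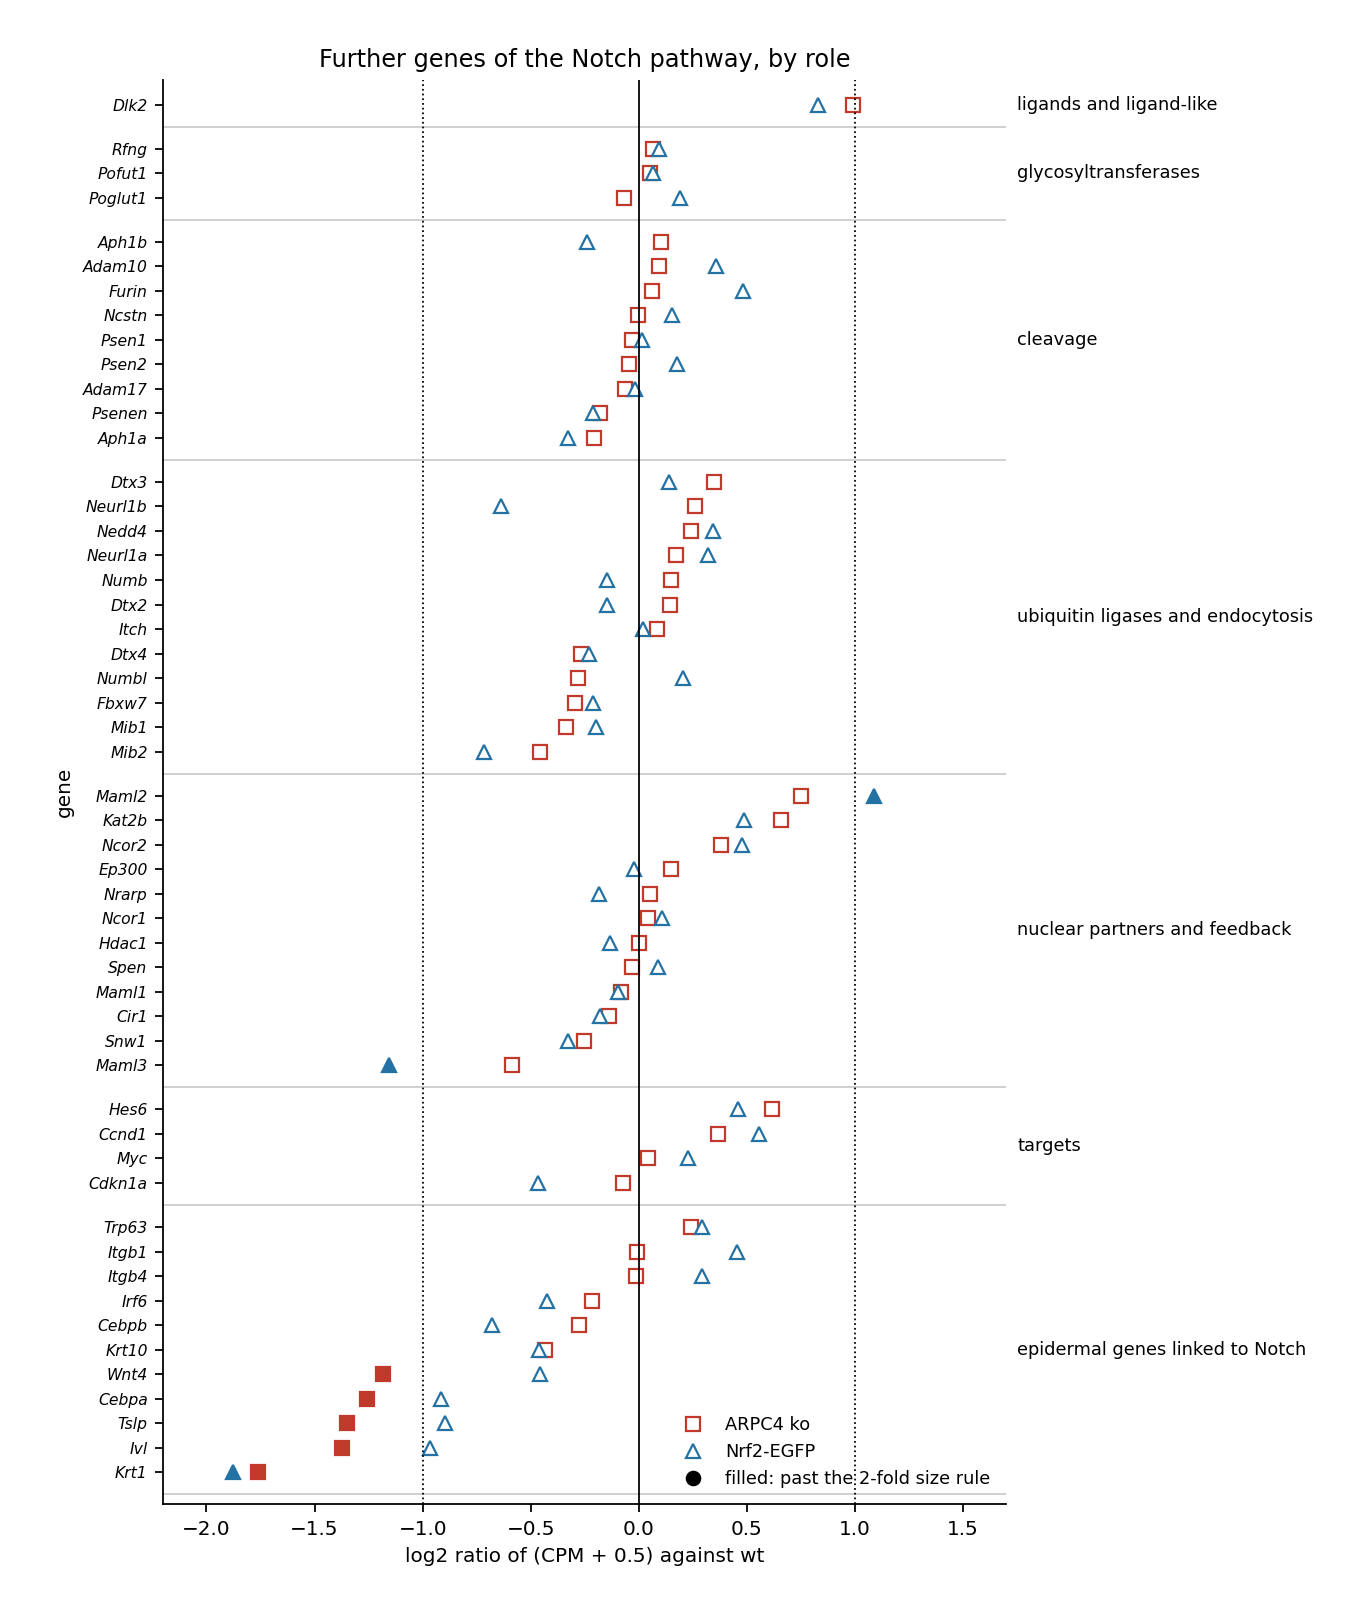
Log2 ratio of CPM + 0.5 to wt for the 52 further genes that reached the minimum level, grouped by role, with squares for ARPC4 ko and triangles for Nrf2-EGFP, filled where the 2-fold rule was passed and dotted lines at -1 and 1. The filled squares are Krt1, Ivl, Tslp, Cebpa and Wnt4, and the filled triangles are Krt1, Maml2 and Maml3.

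Genes of receptor processing and ligand handling did not pass the 2-fold rule in any comparison, beside 6.76%, 5.61% and 2.98% of all genes, a rate at which groups this small would hold few calls. Among 9 measured cleavage genes, Aph1a, a γ-secretase subunit, differed most in ARPC4 ko, with a log2 ratio to wt of -0.21, and Furin, the convertase that cuts the receptor precursor, differed most in Nrf2-EGFP, with 0.48. Aph1b and Aph1c are near-identical copies, so their counts are uncertain. None of the 3 measured glycosyltransferases besides Lfng passed, and Poglut1, which adds glucose to the receptor, differed most, with -0.07 in ARPC4 ko and 0.19 in Nrf2-EGFP. Of 12 measured ubiquitin ligases and endocytic adaptors none passed, although in ARPC4 ko against wt the interval excluded 1 for 11 of them, beside 66.3% of all genes. Mib2, a ligase that acts on ligands, had 24.5 CPM in wt, 17.7 CPM in ARPC4 ko and 14.7 CPM in Nrf2-EGFP. Neurl1b, another such ligase, was 1.92 times higher in ARPC4 ko than in Nrf2-EGFP (1.61 to 2.29), and passed only with scaling by total counts, at a log2 ratio of 1.02.

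Ligands and receptors outside the 10 genes were near absent, apart from Dlk2. Dlk2, a Delta-like protein without the domain that binds the receptor, had 11.5 CPM (10.2 to 13.0) in wt, 23.4 CPM (21.5 to 25.4) in ARPC4 ko and 20.8 CPM (19.1 to 22.7) in Nrf2-EGFP. Wt was the low library, with ratios of 2.03 (1.748 to 2.36) and 1.81 (1.56 to 2.11). Its log2 ratio of 0.99 in ARPC4 ko missed the rule, and it passed with total-count scaling (1.09) and upper-quartile scaling (1.01). Notch4 had 4 counts in wt, 13 in ARPC4 ko and 3 in the Nrf2-EGFP library, and Dll4 had 2, 3 and 2. Both are known from endothelial cells, of whose 8 markers 3 passed the minimum, with a summed level of 27.7, 54.2 and 63.2 CPM. Nearly all of that sum was Flt1, at 24.7, 51.8 and 59.8 CPM, while Emcn had 0 counts and Cdh5 at most 1 count in each library.

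Among nuclear partners, the Mastermind co-activators went in different directions. Maml2 passed as higher in Nrf2-EGFP, with 14.3 CPM in wt, 24.4 CPM in ARPC4 ko, 30.9 CPM in Nrf2-EGFP and a ratio to wt of 2.17 (1.90 to 2.48). Maml3 passed as lower there, 2.34-fold (1.90 to 2.88), with 13.0 CPM in wt, 8.47 CPM in ARPC4 ko and 5.55 CPM in Nrf2-EGFP. For both genes ARPC4 ko lay between wt and Nrf2-EGFP. With a pseudocount of 2 CPM, neither Maml3 nor Krt1 passed in Nrf2-EGFP. Maml1, the most abundant of the family in wt per kilobase, was at 81.6, 76.9 and 76.3 CPM. Kat2b, a histone acetyltransferase recruited with Mastermind, had a log2 ratio to wt of 0.66 in ARPC4 ko and 0.49 in Nrf2-EGFP without passing.

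Of 10 target genes outside the main set, 4 reached the minimum level and none passed the 2-fold rule, beside 6.76% and 5.61% of all genes in the comparisons with wt. In Nrf2-EGFP against wt the interval excluded 1 for each of the 4, as for 62.9% of all genes. Hes3, Hes5 and Heyl had 0 counts in every library, for which the exact interval reaches up to 0.164 CPM in wt. Hey2 had 11 counts in wt, 2 counts in ARPC4 ko and 3 counts in Nrf2-EGFP. Hes6, which is not itself a canonical effector but a relative of Hes1, had a log2 ratio to wt of 0.62 in ARPC4 ko and 0.46 in Nrf2-EGFP. Nrarp, a feedback inhibitor and direct target, was at 19.4, 20.1 and 17.0 CPM, with intervals of both ratios to wt that included 1. Cdkn1a, a cell cycle inhibitor that Notch1 induces in keratinocytes, had 76.7, 72.9 and 55.4 CPM. Ccnd1, which encodes cyclin D1, had the largest difference of this role in Nrf2-EGFP, at 0.55.

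Epidermal genes linked to Notch held all 5 further genes that passed in ARPC4 ko against wt. Of 11 measured members 5 were lower and none higher, beside 2.06% and 4.7% of all genes, and the median log2 ratio was -0.44. The list was chosen with earlier results of these data known, so its share of calls is not independent of them. With a pseudocount of 2 CPM Krt1 no longer passed, and with a minimum of 10 CPM Krt1, Ivl, Cebpa and Tslp were not compared, which left Wnt4. In Nrf2-EGFP 1 of 11 (Krt1) passed as lower and none as higher, beside 2.05% and 3.57% of all genes, with a median of -0.46. Over all genes compared the medians were -0.01 in ARPC4 ko and 0.00 in Nrf2-EGFP. Krt1, a keratin of the spinous layer, had 30 counts in wt, 1 count in ARPC4 ko and 0 counts in Nrf2-EGFP. It reached the minimum level in wt only, at 1.33 CPM, so against wt it could pass only as lower. Its level was 32.4-fold lower (5.39 to 1323) in ARPC4 ko. In Nrf2-EGFP it was at least 8.45-fold lower, the limit of the exact interval. Ivl, the cornified envelope protein involucrin, had 7.07, 2.43 and 3.38 CPM, and Cebpa, a differentiation factor, had 9.16, 3.54 and 4.63 CPM. Both were highest in wt. Krt10, the partner of Krt1, had 4.63, 3.29 and 3.22 CPM and did not pass.

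The other 2 genes that passed are ones that Notch signalling is known to hold down. Wnt4, a Wnt ligand repressed by the Notch1 target p21, had 215.1 CPM (209.0 to 221.2) in wt, 94.4 CPM (90.6 to 98.4) in ARPC4 ko and 156.8 CPM (151.9 to 161.8) in Nrf2-EGFP. The level in ARPC4 ko was thus 2.28-fold below wt (2.17 to 2.39). Tslp, a cytokine that rises in skin lacking Notch signalling, had 8.005, 2.84 and 4.06 CPM. Trp63, the basal transcription factor that opposes Notch and is also on the basal marker list, had a log2 ratio to wt of 0.24 in ARPC4 ko and 0.29 in Nrf2-EGFP. Basal markers differed between the same libraries, but not in 1 direction. Krt5 was at 8997, 4260 and 6248 CPM and Krt14 at 7378, 3249 and 4932 CPM in the same order. They were the only basal markers that passed, both as lower in ARPC4 ko against wt, with ratios of 0.474 and 0.440. Sfn and Cdh1 were also below wt in both other libraries. Epcam, Col17a1 and Trp63 were above wt in both. For Epcam the ratio to wt was 1.54 in ARPC4 ko and 1.62 in Nrf2-EGFP, and for Col17a1 it was 1.02 and 1.25. Itga6 was below wt in ARPC4 ko (0.767) and above it in Nrf2-EGFP (1.04). The part of basal markers in the differences above was not tested. In a bulk library, fewer cells of a type and less RNA per cell cannot be told apart.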

How the data were processed

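RNA of 3 keratinocyte libraries was analysed, 1 per genotype as the labels give it. TruSeq Stranded mRNA libraries from TRIzol-extracted RNA were read as 65 bp single ends, per the labels' protocols. The tools named are TopHat2 2.1.0, Bowtie 1.1 and HTSeq with the mm10 build, per the submitters' processing notes, and the strand option of the counting was not stated. The deposited values are raw counts of reads per Ensembl gene. Rows of the deposited count tables that name no gene were left out; they made up between 8.22% and 9.08% of a library, chiefly reads with several alignments.

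Symbols, coordinates and exon lengths came from GENCODE M21 (GRCm38), which matched 40340 of the 41214 identifiers. Libraries were scaled with edgeR 4.0.16 (R 4.3.3) by TMM, with factors of 0.981, 1.06 and 0.966, and CPM use that scaled size. Ratios carry exact 95% Clopper-Pearson intervals conditional on the gene's sum, and levels exact Poisson intervals. The rule and the shares of all genes were computed on all 11865 genes above the minimum. The 2-fold rule and the intervals of the ratios were first tried on simulated counts with counting error only. The other steps, among them scaling, motif matches and levels per kilobase, were not simulated. No p-value is given. Genes annotated on the opposite strand at Notch1, Notch3, Dll1 and Rbpj had at most 14 counts in a library.

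The 10 genes, the lists and the rules were chosen with earlier results of these data known. The text names all 10 genes, further genes past the rule and the gene with the largest difference in each role; other further genes, and the markers, were named after their values were seen. Alternatives were DESeq2 1.42.0 size factors, total-count and upper-quartile scaling, other minimum levels, a pseudocount of 2 CPM and rules of 1.5-fold and 3-fold; the transcript length was added after seeing the data.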

Additional observations from a re-analysis of the deposited data

How the results depend on the processing

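No paired analysis was possible because each genotype has 1 library, and no library could be left out. In all settings tried the log2 ratios of the 10 genes kept their sign, except Rbpj and Lfng in ARPC4 ko against Nrf2-EGFP, which turned from -0.12 to 0.01 and from -0.08 to 0.05 with total-count scaling. Of 30 such ratios, 13 moved beyond their counting interval with that scaling without passing the rule and 1, Dll1 in ARPC4 ko against wt, passed; 1 moved with upper-quartile factors and 1 with a pseudocount of 2 CPM. Total-count scaling shifted the median of all genes by 0.10 in ARPC4 ko against wt and by 0.12 in ARPC4 ko against Nrf2-EGFP. DESeq2 size factors moved none of the 30.

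With total-count scaling, 1 of the 9 compared genes (Dll1) and 1 further gene (Dlk2) passed as higher in ARPC4 ko against wt. Of all 11872 genes compared with that scaling, 683 did. In ARPC4 ko against Nrf2-EGFP, 1 further gene (Neurl1b) passed as higher, beside 2.01% of all genes with TMM scaling. The medians of the further genes became 0.094 and 0.093 in these comparisons. With upper-quartile factors 1 further gene (Dlk2) was higher in ARPC4 ko against wt, as were 582 of all 11872 genes compared. With a minimum of 10 CPM, 1 further gene (Wnt4) was lower in ARPC4 ko and 1 (Maml3) in Nrf2-EGFP, since fewer genes were compared. At this minimum 46 further genes were compared, and 121 and 92 of all 9318 genes were lower in the same comparisons. Without a minimum the median of the further genes in Nrf2-EGFP against wt was -0.13. With a pseudocount of 2 CPM, 0 further genes were lower in Nrf2-EGFP. At 1.5-fold, 1, 3 and 1 of the 9 compared genes were higher in ARPC4 ko against wt, Nrf2-EGFP against wt and ARPC4 ko against Nrf2-EGFP. At that rule 4, 2 and 1 of the 52 further genes were higher and 6, 8 and 1 lower, in the same order of comparisons. Of all genes 10.8%, 8.61% and 5.85% were higher and 6.24%, 5.72% and 3.38% lower. At 3-fold, 1 further gene was lower in ARPC4 ko, and 1 was lower and 0 higher in Nrf2-EGFP. The numbers of all genes that passed in ARPC4 ko against wt, 558 higher and 244 lower, became 253 and 121 with a minimum of 10 CPM and 311 and 143 with a pseudocount of 2 CPM. The 1.5-fold rule gave 1285 and 740 there and the 3-fold rule 186 and 79. In Nrf2-EGFP against wt, 423 higher and 243 lower became 242 and 92, 258 and 104, 1021 and 679, and 134 and 92 in the same 4 settings. In ARPC4 ko against Nrf2-EGFP, 239 and 114 became 52 and 62, 80 and 67, 694 and 401, and 69 and 23. Total-count scaling gave 683 higher and 198 lower in ARPC4 ko against wt.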

Other observations

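On the log2 scale of CPM + 0.5, Dll1 had the widest range of the 9 compared genes over the 3 libraries. Of the 9317 other genes that reached 10 CPM in any library, those with the smallest Euclidean distance to its centred log2 profile over these 3 libraries were March9 (0.00254; 5.34 CPM in wt, 10.9 CPM in ARPC4 ko and 8.53 CPM in Nrf2-EGFP), Dmxl2 (0.00526; 10.6, 21.1 and 16.7 CPM in the same order) and Eif2ak2 (0.0269; 28.2, 56.4 and 43.7 CPM). March9 encodes a membrane ubiquitin ligase and Eif2ak2 the double-stranded RNA-activated kinase PKR, an interferon-stimulated gene. The likeness rests on 3 values per gene.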
